A study of Mus musculus with 28 samples.

Results

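The MaLR families are a superfamily of long terminal repeat (LTR) retrotransposons, and they were taken from the repeat table as the rows of class LTR whose superfamily name contains MaLR. By this rule 84 of the 539 families in the table were MaLR, 49 of them LTRs and 35 internal regions. By name they fell into 38 MLT1, 25 ORR1 and 19 MT families, with MT-int and MLT-int as the remaining entries. Together they covered 430074 of the 3334903 annotated elements, from 120 copies in the smallest family to 50109 in MTD. The elements named MT2 and MLT2, the LTRs of ERVL elements, are not members.

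A MaLR element is a short retrotransposon related to ERVL, with an internal region that does not code for the proteins of a retrovirus, so that its spread depended on enzymes made by other elements. Most copies today are solitary LTRs. The MT and ORR1 families are found in rodents, where the A subfamilies are the youngest and the E subfamilies the oldest. The MLT1 families are older and are shared among placental mammals. In mouse oocytes and early embryos MT and ORR1 LTRs serve as promoters, and their transcripts make up a large share of the oocyte's RNA. Setdb1 is a methyltransferase that places trimethyl groups on lysine 9 of histone H3 (H3K9me3), a mark that silences endogenous retroviruses.

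The study measured RNA and histone marks in primordial germ cells (PGCs), which later give rise to the gametes, of both sexes. They came from E13.5 mouse embryos, sorted from the gonad by the surface antigen SSEA1. The RNA libraries were wild type (Setdb1 flox/+, 1 per sex), Het1 (delta/+, 2 per sex), Het2 (flox/-, 2 per sex) and KO (delta/-, 2 per sex). H3K9me3 and H3K27me3, the Polycomb mark, were profiled by ChIP-seq in Het (flox/-) and KO (delta/-) germ cells, with 1 library per sex and genotype, and total H3 was profiled in wild-type C57BL/6 males. The sources used here do not give the driver of the deletion or whether embryos were pooled, so that p-values measure only the spread between these libraries. All values are RPKM, read counts scaled to the length of a family and to the size of the library.

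Setdb1 RNA was lower in KO than in Het without overlap, at 27.11 to 31.2 RPKM in male KO against 37.53 to 52.05 in male Het, and at 31.28 to 34.65 in female KO against 38.24 to 58.89 in female Het. The log2 difference over both sexes was -0.54 (limma, adjusted p = 0.0783). It did not pass 0.05, and among the settings tried it passed when female Het2 replicate 1 was left out. The germ cell markers Ddx4 and Dazl were present in all 12 Het and KO libraries, and in females both were lower in KO without overlap. Ddx4 had 193.75 to 214.59 RPKM in female KO and 214.8 to 318.82 in female Het, and Dazl 380.7 to 591.06 and 629.89 to 921.59. All other germ cell markers found had female KO values within the female Het range. Pou5f1, for example, had 68.39 to 73.14 RPKM in female KO and 45.12 to 148.38 in female Het. The share of all genes lower in KO without overlap was not counted. In males Ddx4 and Dazl overlapped between KO and Het, as did the sum of the 9 germ cell markers found in each sex. Among markers of other gonadal cells, the 6 Leydig markers summed to 26.98 to 56.7 RPKM in male KO and to 3.45 to 5.46 in male Het, where Cyp11a1 was at 0 in 2 of 4 libraries. The 5 stromal markers summed to 31.36 to 38.71 RPKM in female KO and to 11.72 to 25.36 in female Het. In females the 6 Sertoli markers also summed higher, to 53.32 to 58.24 RPKM in KO and 21.71 to 42.32 in Het. The largest part of that sum was Cldn11, at 36.4 to 42.47 RPKM in KO and 11.82 to 27.26 in Het. Sox9 and Ptgds were also higher in female KO without overlap, while Amh, Dhh and Aard overlapped. Amh reached at most 0.57 RPKM in female KO. The part of these marker differences in the repeat values below was not tested.

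MaLR RNA was present at a low level in all of the 14 germ cell libraries. The median family stood at 0.228 RPKM over the 12 Het and KO libraries, close to the median of 0.21 over all 539 families. The 3 large name groups overlapped, with medians of 0.247 RPKM in ORR1, 0.238 in MT and 0.205 in MLT1.

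The highest mean belonged to MLT1M, a small family of 248 copies. It stood at 0.53, 0.475, 0.47 and 0.456 RPKM in the 4 male Het libraries and at 0.63 and 0.335 in the male KO libraries. In females it stood at 0.47, 0.55, 0.44 and 0.47 in Het and at 0.52 and 0.45 in KO. The KO libraries lay on both sides of the Het libraries in males and among them in females. MLT1D-int, with 176 copies, came next by mean at 0.366 RPKM. ORR1C2-int followed at 0.362, ahead of MT-int at 0.329.

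ORR1C2-int showed how far libraries of a single group could lie apart. Its male Het values were 0.17 and 0.404 RPKM in Het1 and 0.21 and 0.421 in Het2, and its male KO values were 0.32 and 0.355. In females it had 0.22 and 0.74 in Het1, 0.25 and 0.5 in Het2, and 0.24 and 0.51 in KO. The library numbered 2 was the higher of the 2 in each of these 6 groups. ORR1D-int split in the same way, with 0.14 and 0.347 in male Het1, 0.15 and 0.384 in male Het2 and 0.26 and 0.422 in male KO.

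In Het the difference was shared by many families, since the MaLR median was 0.16 and 0.15 RPKM in male Het1 and Het2 replicate 1 and 0.225 in both replicate 2 libraries. The female Het medians ran from 0.16 to 0.345. The KO medians of replicates 1 and 2 were 0.28 and 0.223 in males, the reverse of the order in Het, and 0.2 and 0.275 in females. Those of the wild-type libraries were 0.197 in the male and 0.26 in the female. The median of all families moved with them, from 0.13 RPKM in male Het2 replicate 1 to 0.31 in female Het1 replicate 2. In these bulk libraries, fewer cells with a transcript and less of it per cell cannot be told apart. In the fit below such shifts of a whole library count as spread. After each library was centred on its median, the within-group SD of a MaLR family had a median of 0.10 on the log2 scale, against 0.14 over all families. It was 0.16 over the 13 MaLR families with under 500 copies and 0.09 over the other 71.

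**Figure D1:**
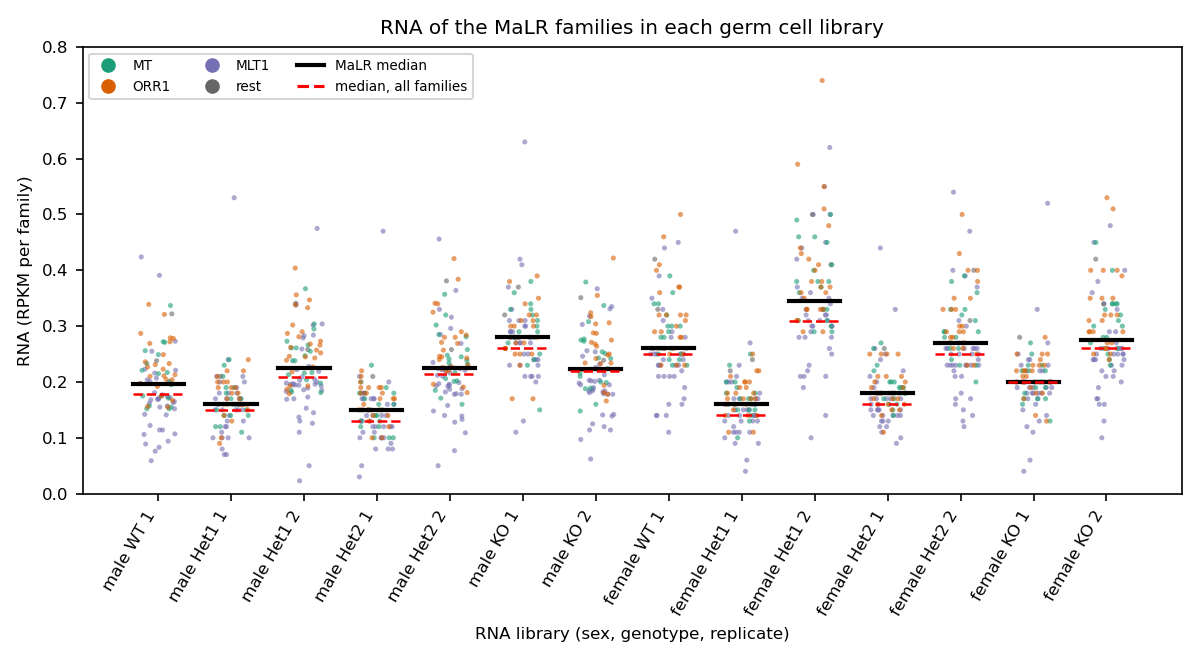
RNA of the 84 MaLR families (points, RPKM, coloured by name group) in each of the 14 germ cell libraries, with the MaLR median as a black line and the median of all 539 families as a red dashed line. The MaLR median runs from 0.15 in male Het2 replicate 1 to 0.345 in female Het1 replicate 2, and the red line follows it.

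The comparison of KO with Het germ cells asks whether MaLR transcripts accumulate when Setdb1 is lost. No MaLR family passed the test: 0 of 84 reached an adjusted p of 0.05 by limma over both sexes, and 0 had an unadjusted p under 0.05, beside 74 of 528 families. Of all 528 families tested 36 rose and 0 fell (6.82%), 25 of them among the 142 ERVK families tested. ERVL families outside MaLR had 1 of 71. These calls rest on log2(RPKM + 0.1), a scale that understates the changes of families with low values.

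The MaLR log2 differences over both sexes ran from -0.02 to 0.28 with a median of 0.16, beside a median of 0.17 over all families. The upper bounds of their 95% intervals reached at most 0.78, in ORR1D-int. The reference family IAPEz-int, the internal region of an intracisternal A-particle, rose by 3.17 (95% interval 2.68 to 3.66, limma adjusted p = 3.16e-13), and its LTR IAPLTR1_Mm rose by 3.02. All 84 MaLR intervals therefore lay below the IAP intervals. MERVL-int, the internal region of an ERVL family, rose by 0.71 (limma adjusted p = 0.0244). Its LTR MT2_Mm had 0.45 (adjusted p = 0.218), and after median centring it passed at an adjusted p of 0.0458, where the lowest of the MaLR families was 0.332.

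**Figure D2:**
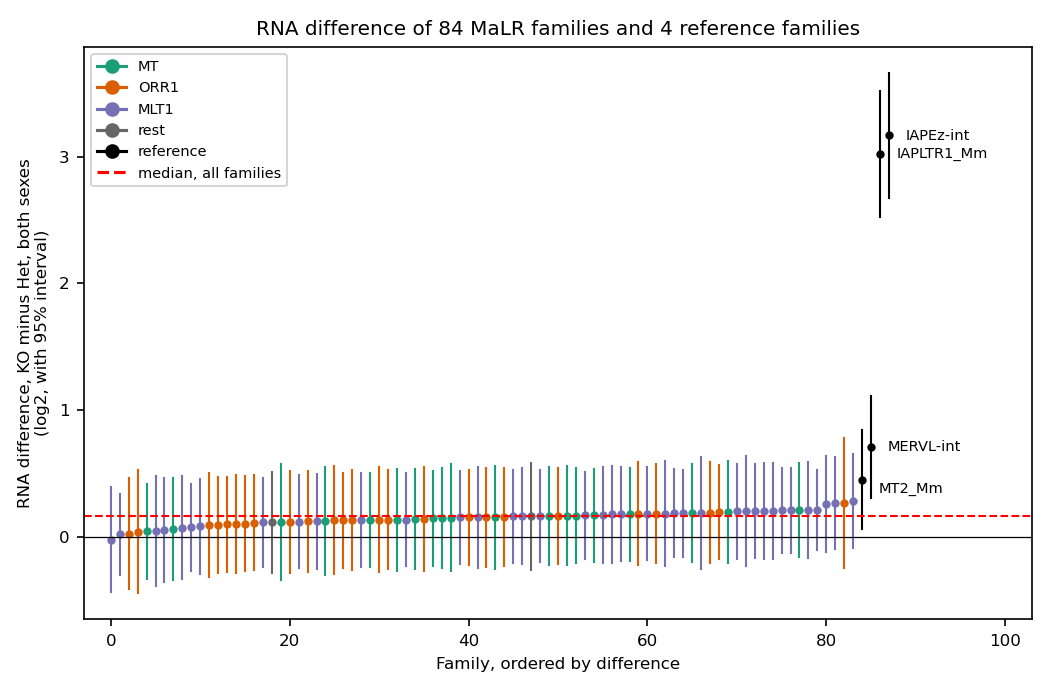
Log2 difference in RNA between KO and Het germ cells over both sexes (points) with 95% intervals (lines) for the 84 MaLR families and 4 reference families, in order of size. The MaLR points lie between -0.02 and 0.28 around the median of all families (red dashed line, 0.17), and IAPEz-int and IAPLTR1_Mm stand at 3.17 and 3.02.

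MTA_Mm is the youngest MT LTR and has 15531 copies. It stood at 0.19, 0.261, 0.18 and 0.248 RPKM in male Het and at 0.33 and 0.254 in male KO. In females it stood at 0.2, 0.37, 0.2 and 0.29 in Het and at 0.23 and 0.31 in KO. The groups overlapped in both sexes, and the log2 difference was 0.17 (SE 0.19, limma adjusted p = 0.734). Its internal region MTA_Mm-int gave 0.262 ± 0.051 RPKM (SD, n = 4) in male Het and 0.359 ± 0.030 (n = 2) in male KO. Both male KO libraries of MTA_Mm-int, at 0.38 and 0.337, lay above all 4 male Het libraries, the highest of which was at 0.304. In females MTA_Mm-int had 0.325 ± 0.107 in Het and 0.335 ± 0.092 in KO.

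MT-int, an MT internal region with no letter in its name, stood at 0.21, 0.341, 0.21 and 0.381 RPKM in male Het and at 0.37 and 0.351 in male KO. Its female values were 0.22, 0.5, 0.26 and 0.4 in Het and 0.28 and 0.42 in KO. In this family the KO libraries fell within the Het range in both sexes, and the log2 difference was 0.16 (limma adjusted p = 0.734). MTC, the family of the element from which an oocyte transcript of Dicer1 starts, had a log2 difference of 0.14 (limma adjusted p = 0.734) with 26761 copies. For MTD, the most numerous family, the difference was 0.17. Dicer1 RNA itself stood at 38.4 ± 7.18 RPKM in male Het and 36.3 ± 4.14 in male KO, and at 41.05 ± 5.01 and 38.5 ± 2.96 in females.

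ORR1A0, the ORR1 LTR with the highest H3K9me3, had 0.2, 0.262, 0.19 and 0.226 RPKM in male Het and 0.31 and 0.248 in male KO. In females it had 0.18, 0.33, 0.2 and 0.26 in Het and 0.22 and 0.29 in KO. The log2 difference was 0.16 (SE 0.19, limma adjusted p = 0.734). ORR1A1 had 0.10 and ORR1A3 0.16.

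The 4 most positive differences were those of MLT1G (0.28, 95% interval -0.09 to 0.66), ORR1D-int (0.27), MLT1J2 (0.27) and MLT1G1 (0.26). After median centring they were 0.08, 0.07, 0.07 and 0.06. ORR1D-int went to 0.000768 without female KO replicate 2 and to 0.54 without female KO replicate 1, and MLT1G, MLT1J2 and MLT1G1 went to 0.17, 0.15 and 0.16 without male KO replicate 1. MLT1G stood at 0.12, 0.173, 0.12 and 0.178 RPKM in male Het and at 0.3 and 0.19 in male KO, so that both KO libraries lay above all Het libraries. In females the groups overlapped, at 0.14, 0.32, 0.15 and 0.23 in Het and 0.2 and 0.25 in KO. The limma adjusted p of MLT1G was 0.669, the lowest among the MaLR families. At the other end stood MLT1M (-0.02), MLT1A1-int (0.02), ORR1D1-int (0.03) and ORR1C2-int (0.04). MLT1A1-int, ORR1D1-int and ORR1C2-int had negative values after median centring, at -0.18, -0.17 and -0.16.

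In males alone 0 of 84 MaLR families passed by limma, against 13 of 528 families (2.46%), and 1, MLT1A-int, had an unadjusted p under 0.05 (beside 52 of 528), with a difference of 0.47 (adjusted p = 0.464). The male median was 0.28 for MaLR and 0.29 for all families. In females 0 of 84 passed, against 10 of 528 (1.89%), and 0 had an unadjusted p under 0.05, beside 39 of 528. The female medians were 0.03 and 0.05. The KO difference itself did not differ detectably between the sexes. For this interaction 0 of 84 MaLR families and 0 of 528 families (0%) passed by limma, and 0 MaLR families had an unadjusted p under 0.05, beside 3 of 528. The MaLR median was -0.25, beside -0.22 over all families.

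Both male KO libraries lay above all 4 male Het libraries for 19 of 84 MaLR families. The same held for 182 of 528 families (34.5%), a larger share than among the MaLR families. In females it held for 0 of 84 MaLR families and for 50 of 528 families (9.47%). In neither sex did both KO libraries lie below all Het libraries, for 0 of 84 and 0 of 528 families (0%).

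Male KO replicate 1 carried most of the positive male values. Against the Het libraries of the same replicate number it had a MaLR median of 0.58, with 84 of 84 families positive, and all families had 0.55. Male KO replicate 2 had a MaLR median of -0.03, with 28 of 84 positive, and all families had 0.01. In females the corresponding medians were 0.16 (74 of 84 positive) and -0.09 (10 of 84 positive), and all families had 0.17 and -0.08. Centring each library on its median moved the median over all families by 0.20 in the comparison over both sexes. Relative to that centre 14 MaLR families were positive and 70 negative, beside 171 positive and 357 negative of all 528 families. The medians were -0.05 for MaLR and -0.04 over all families. After this centring 0 of 84 MaLR families passed by limma, against 18 of 528 families, all higher in KO. With the replicate number as a block within each sex 0 of 84 MaLR families passed by limma in the KO comparisons, against 70 of 528 families over both sexes, 40 in males and 34 in females. The lowest MaLR adjusted p by limma was then 0.0668, in males, for MLT1A-int and MLT1J2. An unadjusted limma p under 0.05 was reached in this fit by 4 of 84 MaLR families over both sexes and 12 in males, all higher in KO. In females 0 reached it, and for the interaction 4. The same counts over all families were not made.

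Female and male Het libraries were compared next. By limma 0 of 84 families passed between female and male Het, against 0 of 528 (0%), and 3 MaLR families had an unadjusted p under 0.05, beside 18 of 528. These were the internal regions MTEb-int (0.59), MLT1C-int (0.57) and MLT1A1-int (0.43), all higher in females (limma adjusted p = 0.770). MTEb-int stood at 0.12, 0.185, 0.1 and 0.206 RPKM in male Het and at 0.17, 0.41, 0.27 and 0.29 in female Het, with overlap. With the replicate number as a block within each sex, added after the data were seen, MTEb-int (limma adjusted p = 0.0147) and MLT1C-int (adjusted p = 0.0183) passed, so 2 of 84 were higher in females, against 13 of 528 families higher and 1 lower. The MaLR median was 0.19, beside 0.18 over all families. Family levels in the sexes tracked each other across the 84 families (Pearson's r 0.920, Spearman's rho 0.888, as a description, since families share libraries).

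H3K9me3 separated the MaLR name groups more clearly than RNA did. In male Het the median level was 0.29 RPKM in ORR1, 0.21 in MT and 0.15 in MLT1, and the median of all families was 0.18. In female Het the medians were 0.35, 0.27 and 0.205, in the same order. Of the 20 MaLR families with the most H3K9me3 in Het germ cells 16 were ORR1 and 3 MT families, with MT-int as the other and 0 from MLT1. The 2 Het libraries ranked the 84 families alike (r 0.979, rho 0.974). Their levels were nevertheless low beside IAPEz-int, at 1.59 RPKM in male Het and 1.4 in female Het.

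The highest levels were those of MT-int, ORR1A0 and ORR1A1. MT-int stood at 0.48 RPKM in male Het, 0.6 in male KO, 0.52 in female Het and 0.59 in female KO. ORR1A0 stood at 0.46, 0.54, 0.57 and 0.58, and ORR1A1 at 0.45, 0.55, 0.56 and 0.56, in the same order. In all 3 the KO library was at or above the Het library of its sex. At the low end MLT1C-int, with 127 copies, had 0.08, 0.12, 0.15 and 0.15 RPKM.

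**Figure D3:**
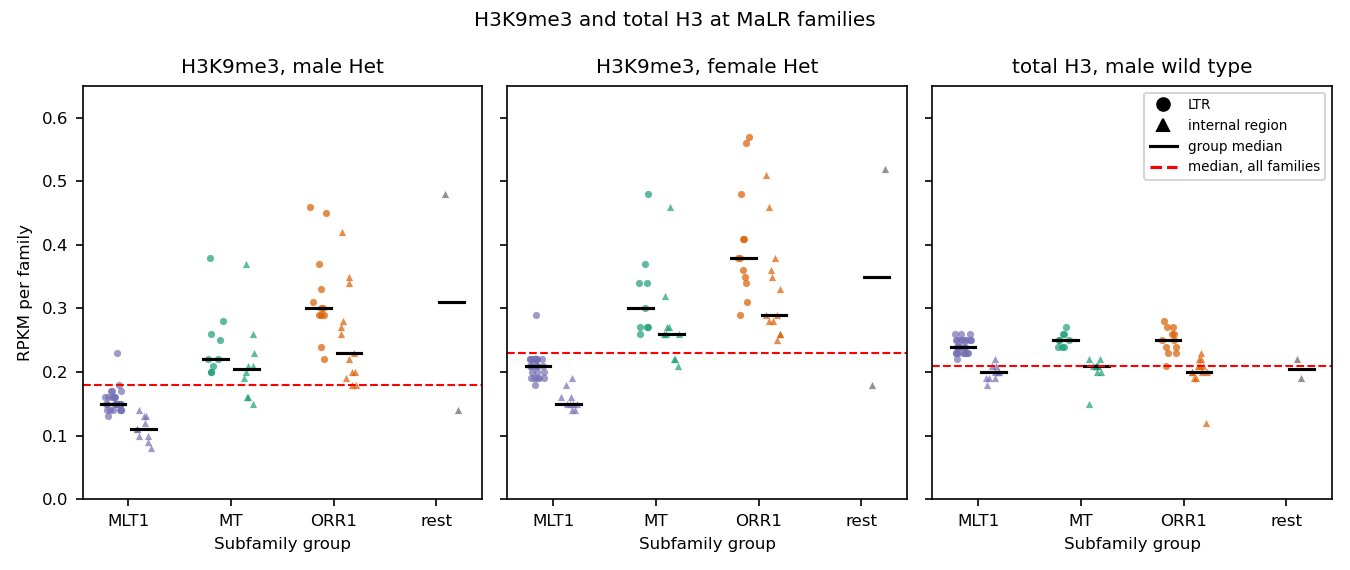
H3K9me3 in male and female Het germ cells and total H3 in wild-type males (RPKM) for MLT1, MT, ORR1 and the 2 remaining families, with LTRs as circles, internal regions as triangles, group medians as black lines and the median of all families as a red dashed line. H3K9me3 in male Het is lowest in MLT1 (median 0.15), higher in MT (0.21) and highest in ORR1 (0.29), and total H3 stays between 0.12 and 0.28.

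Within the MT and ORR1 LTRs the mean level of a letter declined from A to E, with a near tie of MTB and MTC. Averaged over the LTR families of a letter, male Het H3K9me3 was 0.38 RPKM in MTA, 0.265 in MTB, 0.26 in MTC, 0.22 in MTD and 0.207 in MTE. In ORR1 it was 0.384 in A, 0.295 in both B and C, 0.265 in D and 0.22 in E. The male KO library kept the order, at 0.44, 0.365, 0.36, 0.31 and 0.27 for MT and 0.47, 0.36, 0.34, 0.32 and 0.29 for ORR1. The female Het and KO libraries did so too. Single families overlapped between letters. In male Het MTB_Mm, at 0.25 RPKM, lay below MTC at 0.26, and ORR1D1 and ORR1B2 were level at 0.29. The internal regions followed the letters less closely. In male Het those of ORR1 had 0.314 RPKM in A, 0.195 in B, 0.225 in C, 0.237 in D and 0.2 in E, and those of MT had 0.37 in A, 0.21 in each of B, C and D, and 0.186 in E.

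RNA did not follow the letters, at 0.255 RPKM in MTA, 0.223 in MTB, 0.279 in MTC, 0.255 in MTD and 0.217 in MTE. Total H3 in the MT LTRs declined slightly, at 0.26, 0.265, 0.25, 0.25 and 0.242, but for near ties. In the ORR1 LTRs total H3 did not follow the letters, at 0.268, 0.24, 0.225, 0.235 and 0.25. H3K27me3 declined with the letter in the MT LTRs of female Het (0.41, 0.38, 0.36, 0.34 and 0.333 RPKM) and, but for a near tie of D and E, of male Het (0.38, 0.35, 0.33, 0.31 and 0.312). In the ORR1 LTRs it was highest in A and did not follow the letters after that, at 0.366, 0.32, 0.305, 0.31 and 0.34 in male Het. Several letters hold a single family, each library is 1 measurement, and no test was made of the order.

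**Figure D4:**
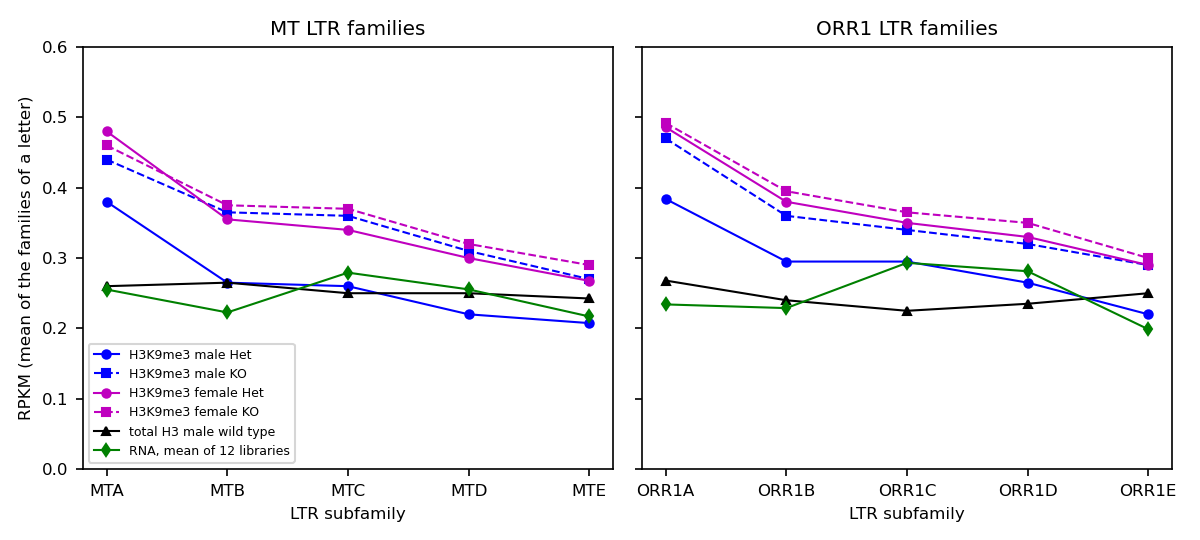
H3K9me3 in the 4 germ cell libraries, total H3 in wild-type males and mean RNA over 12 libraries (RPKM) for the LTR families of MT and ORR1, averaged by letter from A to E. H3K9me3 in male Het goes from 0.38 in MTA to 0.207 in MTE and from 0.384 in ORR1A to 0.22 in ORR1E, and RNA shows no such order.

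A column of the repeat table headed mappability moved with H3K9me3. Its highest MaLR values were 0.84 in MTA_Mm, 0.88 in MTA_Mm-int, 0.82 in ORR1A0 and 0.87 in ORR1A0-int. Other A families were lower, with 0.25 in ORR1A3 and 0.15 in ORR1A4-int. These lay below MT-int at 0.7, MTB at 0.59 and ORR1D-int at 0.53. The column held 0.07 or less in all 38 MLT1 families, and 0.99 in IAPEz-int. The sources used here do not say how the column was made or which end of it stands for uniquely mapping sequence. Across the 84 families its rho with Het H3K9me3 was 0.868, and its part in the order of the letters was not tested. Total H3, counted on the same families, had a rho of 0.280 with Het H3K9me3.

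Total H3 allowed a ratio of the mark to the nucleosomes measured at a family, with the strain and genotype of the libraries differing. In males the ratio of Het H3K9me3 to total H3 had a median of 1.22 in ORR1, 0.917 in MT and 0.615 in MLT1. On the log2(RPKM + 0.1) scale the ORR1 families ran from -0.13 (ORR1E) to 1.03 (ORR1D-int). The MLT1 families ran from -0.69 (MLT1C-int) to -0.04 (MLT1N2). Where 0 falls on this scale depends on how the 2 libraries were scaled. The MaLR median on this scale was -0.20, beside -0.22 over all families and 0.75 over ERVK. By letter the LTR ratio was 1.46, 0.999, 1.04, 0.88 and 0.856 from MTA to MTE and 1.44, 1.23, 1.32, 1.13 and 0.88 from ORR1A to ORR1E. The A letters were highest and the E letters lowest, but MTC stood above MTB and ORR1C above ORR1B. ORR1D-int had the highest ratio, 2.92, from 0.35 RPKM of H3K9me3 and the lowest total H3 of the superfamily, 0.12.

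LTRs and internal regions of the same name could be paired in 30 cases. Total H3 was lower in the internal region in 30 of 30 pairs (medians 0.25 and 0.205 RPKM), as was H3K27me3 (0.328 and 0.25). H3K9me3 was lower in 29 of 30 (0.268 and 0.23), and its ratio to total H3 in 21 of 30 (0.939 and 0.928). RNA went the other way in 19 of 30 pairs, with medians of 0.222 in LTRs and 0.25 in internal regions. The internal regions had fewer copies in 30 of 30 pairs.

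The comparison of H3K9me3 between KO and Het asks whether the mark at MaLR depends on Setdb1, and it has no replicates within a sex. By a rule of at least 2-fold in the same direction in both sexes, 0 of the 3 MaLR families at 0.5 RPKM or more were called, beside 0 of 102 families (0%). Most levels were slightly higher in KO. The log2 ratio of KO to Het had a median of 0.21 over the 84 families in males, where 82 were above 0 and 0 below, and a median of 0.08 in females, where 75 were above and 4 below. Over all families the medians were 0.14 and 0.05, so that most families of the table were also higher in KO. The 2 ERVL reference families were higher in KO as well, at 0.38 and 0.13 in MERVL-int and 0.26 and 0.14 in MT2_Mm. Over ERVK the medians were -0.03 and -0.08. IAPLTR1_Mm had -0.40 in males and -0.54 in females, and IAPEz-int -0.18 and -0.23.

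With no minimum level and a smaller size of 1.25-fold, chosen after the values were seen, 0 of 84 MaLR families fell in both sexes, against 12 of 539 families (2.23%). For MaLR this count was fixed beforehand, since no male ratio was below 0, and it adds nothing to the ratios above. After median centring 34 of 539 (6.31%) fell and again 0 of 84 MaLR families. The medians of all families, given above, were also above 0, and the part of scaling to library size in the MaLR ratios was not tested.

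The largest male ratios were those of MTB_Mm (0.39), MTD (0.36) and MTC (0.35), whose female ratios were 0.06, 0.07 and 0.10. MTD had 0.22 RPKM of H3K9me3 in male Het and 0.31 in male KO, and 0.3 and 0.32 in female Het and KO. MTC had 0.26, 0.36, 0.34 and 0.37 in the same order. In both families the male Het library was the lowest of the 4. Across MaLR, female Het exceeded male Het by a median log2 ratio of 0.27, and female KO exceeded male KO by 0.14. The same ratios over all families were 0.23 and 0.16.

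The 4 families that were lower in female KO than in female Het were MLT1N2 (-0.08), MTA_Mm (-0.05), MTA_Mm-int (-0.03) and ORR1A3 (-0.03). MTA_Mm had 0.38 RPKM in male Het and 0.44 in male KO, and 0.48 and 0.46 in females.

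**Figure D5:**
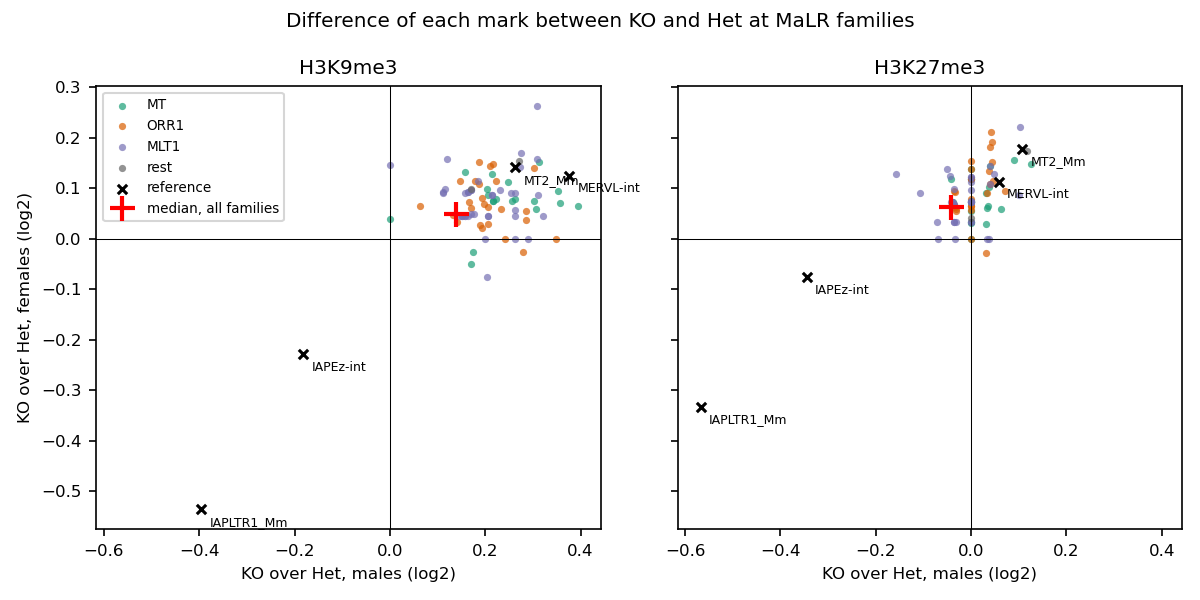
Log2 ratio of KO to Het in males (x axis) and females (y axis) for H3K9me3 and H3K27me3, with 1 library per sex and genotype. Points are the 84 MaLR families by name group, crosses are 4 reference families, and the red plus is the median of all families. For H3K9me3 the MaLR points lie at or to the right of 0 in males, and IAPEz-int and IAPLTR1_Mm lie below 0 in both sexes.

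H3K27me3 was more even over the superfamily. Its median in male Het was 0.3 RPKM in ORR1, 0.29 in MT and 0.27 in MLT1, and it followed total H3 across the 84 families (rho 0.820). The highest Het levels were those of ORR1A1, with 0.38 RPKM in male Het, 0.38 in male KO, 0.44 in female Het and 0.44 in female KO. ORR1A3 had 0.37, 0.38, 0.43 and 0.42, and MTA_Mm had 0.38, 0.38, 0.41 and 0.43. None of these libraries stood apart from its partner of the same sex by more than 0.02 RPKM, and 1 step of the deposited values is 0.01.

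No MaLR family reached 0.5 RPKM of H3K27me3 in both sexes, so that 0 of 84 entered the rule of size, and 0 of 66 families (0%) were called. At a minimum of 0.2 RPKM 80 MaLR families entered and 0 were called, beside 0 of 438 families. The log2 ratio of KO to Het had a median of 0 in males (27 above, 28 below) and of 0.07 in females (77 above, 1 below). The medians over all families were -0.04 and 0.06, so that most families of the table were lower in male KO and higher in female KO. With no minimum and 1.25-fold 0 of 84 MaLR families fell, against 9 of 539 (1.67%), and after median centring 0 of 84, against 17 of 539 (3.15%). Before centring only the 1 MaLR family below 0 in females could have fallen in both sexes.

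The genes that silence retrotransposons were followed as a list of 32, with Setdb1 and its cofactors, H3K9 and DNA methyltransferases, HUSH and piRNA genes, and Dicer1. Of these 30 were tested, and by limma over both sexes 0 rose and 0 fell, against 141 of 13518 genes (1.04%). At an unadjusted p under 0.05 there were 7 of the 30, beside 1708 of all 13518 genes (12.6%). The deleted gene, Setdb1, was among these 7. The list's median log2 difference was 0.01, and that of all genes 0.05. Besides Setdb1 the lowest p-values were those of Gm15446, a zinc finger gene (0.64, adjusted p = 0.123), and Dnmt3b, a de novo DNA methyltransferase (0.52, adjusted p = 0.125). Trim28, the corepressor that recruits Setdb1, had 0.00 (limma adjusted p = 0.998), with 545 ± 119 RPKM in male Het and 531 ± 150 in male KO.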

How the data were processed

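RNA and histone mark libraries were compared at repeat families. Reads were aligned to mm9 with BWA, with SAMtools for RNA, per the submitters' processing notes. The assignment of reads that match several repeats and the library depth were not given in those notes. The authors deposited RPKM per family and per gene. The repeat table also holds the number of elements and a mappability fraction, deposited by the authors with no description. RNA columns have 2 decimals, except 4 with 3, which are the male wild type and replicate 2 of male Het1, Het2 and KO.

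RNA was tested with limma 3.58.1 in R 4.3.3 on log2(RPKM + 0.1) for the 528 families at 0.1 RPKM or more in at least 2 of 12 libraries (all 84 MaLR), in 1 fit of 4 groups (Het1 and Het2 as Het, n = 4 per sex, and KO, n = 2 per sex) with a mean-variance trend, two-sided, with Benjamini-Hochberg adjustment over all families and a threshold of 0.05. Genes were fitted alike on log2(RPKM + 1), at 1 RPKM or more. Wild-type libraries stayed outside the fits. ChIP families, with 1 library per sex and genotype, were called by size with a pseudocount of 0.1. In 14 pairs of libraries of a group, at most 70 of 539 values were equal.

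The members, gene lists and tests were chosen with earlier results of these data known. Named MaLR families are the 6 highest by RNA, the 6 by H3K9me3 and the 3 by H3K27me3, the 8 internal regions with the most RNA, and the 4 most positive and 4 most negative KO differences. Families outside these, such as MTC, MTD and MTB_Mm, were named after their values were seen. Alternatives were other pseudocounts, filters, scalings and controls, a replicate block over both sexes or within each, and leaving out each library. Somatic cells, C57BL/6 RNA and DNA methylation were not analysed here.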

Additional observations from a re-analysis of the deposited data

How the results depend on the processing

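By limma no MaLR family passed in the 4 contrasts that involve KO under any of 23 other settings, and between the sexes in Het 2 of 84 passed under 1 of them, a replicate block within each sex. The lowest adjusted p over these was 0.158 over both sexes, 0.0668 in males, 0.166 in females, 0.684 for the interaction and 0.0147 for sex, and the median over both sexes ran from -0.06 to 0.24. A filter at 1 RPKM leaves no MaLR family and gave no value, nor did a minimum of 1 RPKM for the marks. The labels do not say what a replicate number marks. In male Het and KO it goes with the decimals of the RNA columns, 2 in replicate 1 and 3 in replicate 2. The pairing was checked by whether same-numbered libraries deviate together. The correlations were 0.31 to 0.59 over the 3 pairs of groups within males and 0.20 to 0.55 over the 3 within females. Over all 15 pairs they were -0.14 to 0.67, with 2, both between the sexes, at or under 0.1. A block was therefore also fitted within each sex, as an alternative chosen after seeing the data. With 1 replicate block for both sexes 0 of 84 MaLR families passed in each contrast, while calls over all families went from 36 to 64 over both sexes, from 13 to 32 in males and from 10 to 26 in females. The block within each sex gave 70, 40 and 34. With 1 replicate block for both sexes 1 silencing gene passed, Mov10l1, and 2 passed, Setdb1 and Morc2a, without female Het2 replicate 1, so that leaving out 1 library at a time gave 0 to 2 silencing genes.

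Some differences near 0 changed sign without passing. Median centring gave -0.18 for MLT1A1-int, -0.17 for ORR1D1-int and -0.16 for ORR1C2-int, and quantile normalization -0.24, -0.17 and -0.14. A pseudocount of 1 gave -0.000423 for ORR1C2-int, and Het2 alone as controls gave 0.0377 for MLT1M. Leaving out a library gave -0.11 to 0.15 for MLT1A1-int, -0.13 to 0.19 for ORR1D1-int, -0.17 to 0.25 for ORR1C2-int and -0.21 to 0.17 for MLT1M. The median log2 ratio of H3K9me3 to total H3 was -0.0838 with a pseudocount of 0.5, -0.268 with 0.02 and 0.0209 after median centring. The cause was not tested. The called counts for the marks stayed at 0 MaLR families under all settings run, including those with no minimum level, chosen after the data were seen. The deposited values carry no depth, so that counting error could not be given. The comparison of soma with PGC RNA at MaLR families was not run, since its libraries are not in the repeat table as analysed here.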
